A study of Mus musculus with 6 samples.

Results

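The genes described here are 10 long noncoding RNA genes measured in liver CD4 T cells: Malat1 and Neat1, which make RNAs retained in the nucleus, and the 8 snoRNA host genes Gas5, Snhg1, Snhg3, Snhg5, Snhg6, Snhg8, Snhg12 and Snhg15. They were picked by symbol, each symbol was 1 row of the count table, and all 10 of the 28430 symbols were found and passed the filter on low counts. By WT mean CPM they ranked from 3 (Malat1) to 9489 (Snhg3) among the symbols of the table. Bulk RNA-Seq was performed on CD4 T cells sorted from the livers of WT mice and of dKO mice, with 3 libraries per group. The dKO mice carried Nr4a1 fl/fl and Nr4a2 fl/fl alleles and the Cd4-Cre transgene, which is active in CD4 and CD8 T cells alike. Both groups received the choline-deficient high-fat diet (60 kcal% fat, 0.1% methionine), which the study fed to its WT and dKO mice for 8 weeks as a model of metabolic dysfunction-associated steatohepatitis (MASH). The sources used here do not give the age or sex of the mice behind each library, or whether mice were pooled.

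Malat1 RNA gathers in nuclear speckles, domains rich in splicing factors, and Neat1 RNA is the scaffold of the paraspeckle, a neighbouring nuclear body built on its long form. A snoRNA host gene is spliced, and the small nucleolar RNAs (snoRNAs) that guide chemical modification or cleavage of ribosomal RNA are trimmed from its introns. The spliced exons of such hosts often begin with a run of pyrimidines, as ribosomal protein mRNAs do, and are commonly degraded by nonsense-mediated decay when they reach ribosomes. Gas5 was first found as a transcript that accumulates in growth-arrested cells, and human GAS5 RNA can bind the glucocorticoid receptor.

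The letters around the annotated starts are shown first, because this pyrimidine run is the feature by which the translation of host transcripts is usually explained. The set of promoter windows used here (GRCm38.p6) covered 8 of the 10 genes, with 2 starts for Gas5, and held none for Neat1 and Snhg6. Each line below runs 5′ to 3′ from 40 bases before the annotated start to the 30 bases from it on. Capitals mark the longest unbroken run of C or T within 20 bases of the start and, where present, the letters TATAA upstream.
Gas5, second start (chr1:161035126-161035195, plus strand): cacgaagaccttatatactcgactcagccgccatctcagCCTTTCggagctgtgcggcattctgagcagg
Snhg1 (chr19:8723447-8723516, plus strand): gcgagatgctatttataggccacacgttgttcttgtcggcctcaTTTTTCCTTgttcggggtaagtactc
Snhg12 (chr4:132308638-132308707, plus strand): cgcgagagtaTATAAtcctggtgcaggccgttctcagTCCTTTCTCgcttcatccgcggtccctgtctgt
Snhg8 (chr3:123508307-123508376, minus strand): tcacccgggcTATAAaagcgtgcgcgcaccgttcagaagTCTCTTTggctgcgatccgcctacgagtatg
Snhg5 (chr9:88522868-88522937, minus strand): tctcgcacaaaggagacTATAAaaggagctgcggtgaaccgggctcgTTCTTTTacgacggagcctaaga
Malat1 (chr19:5802643-5802712, minus strand): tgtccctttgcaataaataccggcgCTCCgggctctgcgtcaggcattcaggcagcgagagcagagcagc

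The run was 9 bases long in Snhg1 and Snhg12 and 7 bases long in Snhg8 and Snhg5. It crossed the annotated start in Snhg12 and Snhg8, where it began at -3 and -1. In Snhg1 and Snhg5 it began after the start, at bases 5 and 8, so these transcripts as annotated do not begin with it. The run was 6 bases at the second Gas5 start, 5 in Snhg3, 4 in Snhg15 and Malat1, and 3 at the first Gas5 start. A run of at least 7 was present in 4 of the 8 host windows and in 24.3% of all 32850 windows of the table. The letters TATAA, searched on the gene's strand 15 to 45 bases upstream after these sequences had been seen, were present in 3 of the 8 host windows and in 3.89% of all windows. The letters AAAGGTCA, the element that NR4A receptors bind as monomers, were searched on both strands of the whole windows, from 250 bases before to 50 bases after the start. They were in 0 of the 9 windows of these genes and in 1.51% of all windows.

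The targeted genes were examined as a check of the labels. Normalised levels, in reads per 1000000 counted reads (CPM) after scaling for library composition, were 328, 676 and 818 for Nr4a1 in WT 1 to WT 3 and 711, 1033 and 639 in dKO 1 to dKO 3. Nr4a2 stood at 159.5, 284 and 234 CPM in the WT libraries and at 477, 539 and 391 CPM in the dKO libraries. Nr4a2 reads were thus higher and not lower with the dKO label (log2 fold change 1.05 ± 0.21 SE, edgeR adjusted p = 0.0308, and 0.0791 to 0.128 without WT 3, dKO 1 or dKO 2). Counts per gene do not separate exons, so they cannot show whether the floxed parts of these genes were removed. Directions below therefore refer to the labels alone. Nr4a1 (0.39 ± 0.37 SE, log2 fold change) and the untargeted Nr4a3 (1.16 ± 0.37) did not pass (adjusted p = 0.65 and 0.17). With Xist as a covariate, chosen after seeing the data, Nr4a1 was higher in dKO too (1.23, edgeR adjusted p = 0.000668), and with hepatocyte markers as a covariate Nr4a2 did not pass (0.67, adjusted p = 0.338). Counted reads numbered 5747744 to 11078184 per library, which limits the precision of genes near 1 CPM. Of 7 Treg marker genes, 6 passed the test and were higher in the libraries labelled dKO, beside 2.15% of all genes tested. The 7 genes summed to 1107 to 1773 CPM in WT and 3379 to 4400 CPM in dKO. By flow cytometry, the study reported a larger share of Foxp3+ cells among liver CD4 T cells of dKO mice on this diet. Both CD8 genes were higher too (198 to 236 CPM against 295 to 337 CPM). CD3 genes and Cd4 were present in every library, 5 of 10 macrophage markers were at 0 in all libraries, and the 10 markers summed to 2.06 to 4.98 CPM. Xist, made from the inactive X chromosome, was at 1650, 132.5 and 96.8 CPM in WT 1 to WT 3, against 1892, 793 and 1907 in dKO 1 to dKO 3. The Y-linked Ddx3y ran the other way (32.1, 253 and 339 CPM, then 16.4, 278.6 and 29.7 CPM), with dKO 2 holding reads of both, so the libraries of a group were not all of 1 sex. What part these marker and sex differences have in the levels below was not tested, except where a covariate is named.

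Malat1 was the most abundant of the 10 genes and the third most abundant symbol of the whole table by its WT mean, with 6760, 7750 and 5670 CPM in WT 1 to WT 3, against 6632, 4668 and 5379 in dKO 1 to dKO 3. The level in dKO 1 lay among the WT values, and the 2 other dKO libraries lay below all of them. The group means were 6727 ± 1040 CPM and 5559 ± 994 CPM (SD, n = 3). The difference was within the spread between libraries (log2 fold change -0.27 ± 0.18 SE, 95% interval -0.66 to 0.11, edgeR adjusted p = 0.44). In bulk RNA, fewer cells of a type and less RNA per cell cannot be told apart.

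Neat1 stood at 212, 308 and 249.7 CPM in WT 1 to WT 3, against 333, 357 and 305 in dKO 1 to dKO 3. WT 2 reached into the dKO range, just above dKO 3, while the other WT libraries lay below all dKO libraries. The log2 fold change was 0.37 ± 0.14 SE (95% interval 0.07 to 0.67). It did not pass the edgeR test, with an adjusted p = 0.161. With the level of Xist added to the fit as a covariate, an alternative chosen after seeing the data, the Neat1 difference was 0.61 and passed (edgeR adjusted p = 0.0404). With hepatocyte markers as a covariate it was 0.13 (adjusted p = 0.842), and without WT 1 it was 0.24 (adjusted p = 0.297). Without WT 2 it was 0.52 and just missed the threshold (adjusted p = 0.0508).

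**Figure D1:**
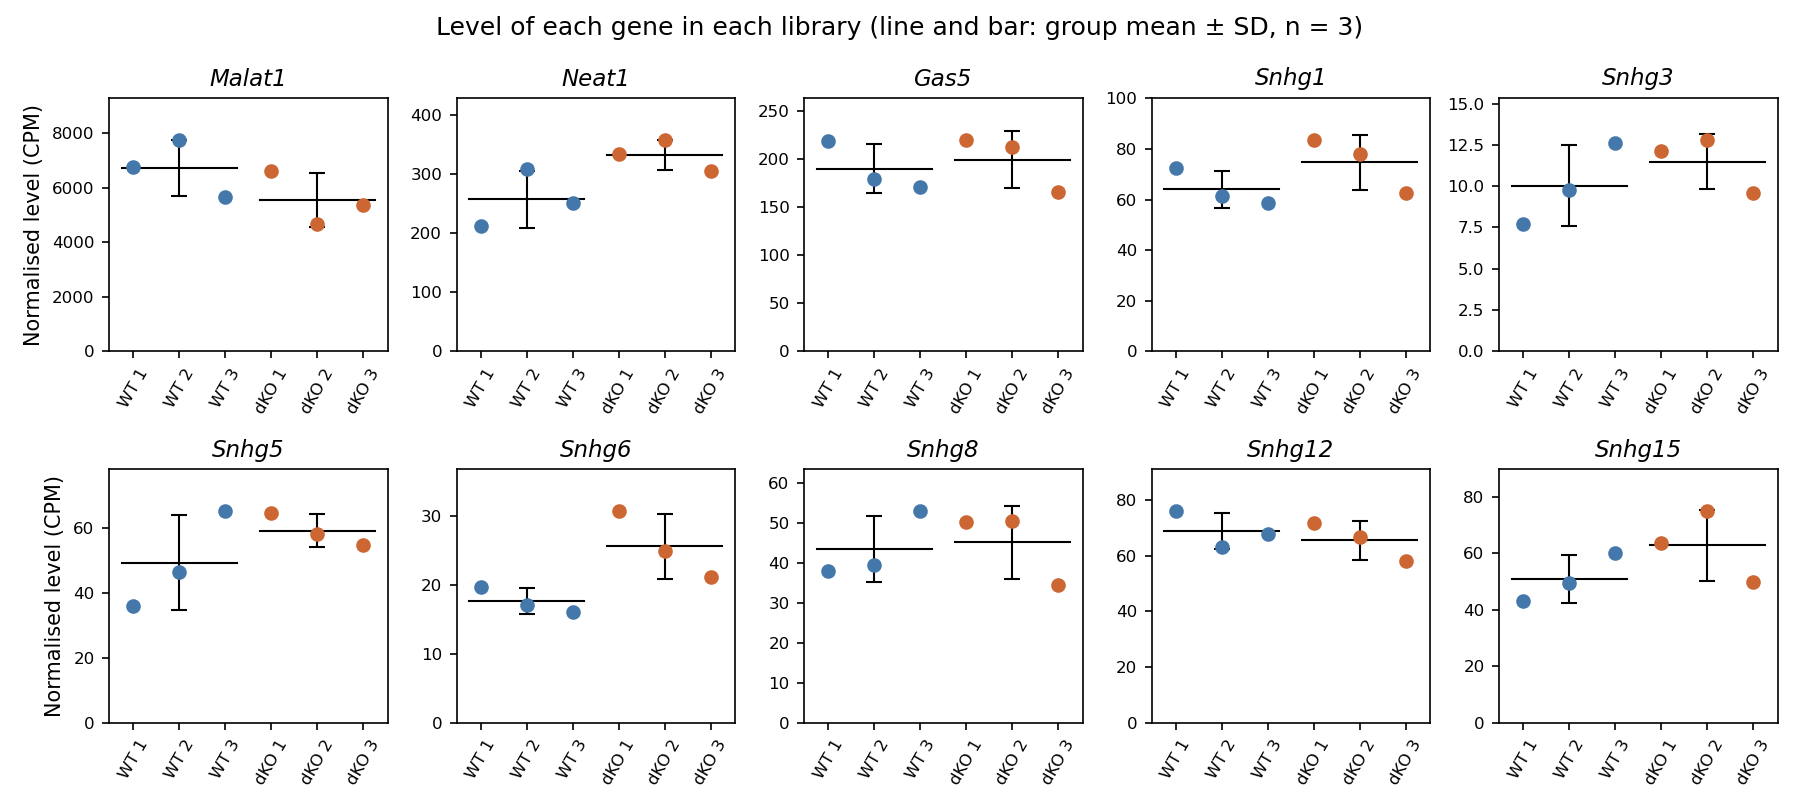
Normalised level (CPM, linear axis from 0) of each of the 10 genes in the 3 WT libraries (blue) and the 3 dKO libraries (orange), with the group mean as a line and the SD as a bar. Snhg6 is the gene whose groups do not overlap, from 16.0 to 19.7 CPM in WT and from 21.1 to 30.6 CPM in dKO.

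Malat1 and Neat1 are neighbours on chromosome 19, at chr19:5795690-5802672 and chr19:5824708-5845480 (GRCm38), with 22035 bases between them. Their ratio within a library does not depend on how libraries are scaled. For every 100 Malat1 reads there were 3.14, 3.98 and 4.40 Neat1 reads in WT 1 to WT 3. In dKO 1 to dKO 3 there were 5.02, 7.64 and 5.67. All dKO libraries lay above all WT libraries, and dKO 2, which had the least Malat1 and the most Neat1, lay highest. The mean log2 ratio was -4.72 ± 0.25 in WT and -4.06 ± 0.31 in dKO (SD, n = 3), a difference of 0.66. The two-sided exact permutation test gave p = 0.1, the smallest value that 3 against 3 libraries allow. Of the genes around them, Frmd8 (-0.08 ± 0.13 SE, log2 fold change) and Slc25a45 (-0.42 ± 0.18) did not pass the edgeR test (adjusted p = 0.806 and 0.215), and Ltbp3 was too low to be tested.

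**Figure D2:**
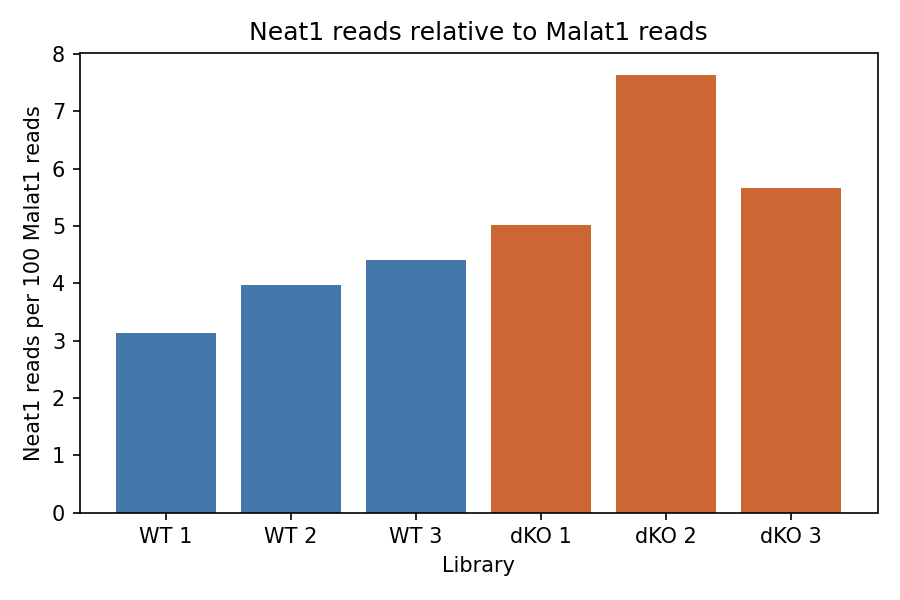
Neat1 reads for every 100 Malat1 reads (linear axis from 0) in each library, WT in blue and dKO in orange, 1 bar per library. The WT bars run from 3.14 to 4.40 and the dKO bars from 5.02 to 7.64.

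Among the 10 genes, edgeR called 0 at an adjusted p under 0.05, where it called 3.31% of the 15694 genes tested (2.15% higher and 1.17% lower in dKO). The other methods called 0 of the 10 as well. Over all 15694 genes, limma-voom called 498, DESeq2 748, and the limma fits to log2(CPM + 1) and log2(CPM + 0.1) 584 and 506. At an unadjusted p under 0.05 by edgeR there were 2, Snhg6 and Neat1, beside 19.2% of all genes tested. The log2 fold change was above 0 for 8 genes and below 0 for Malat1 and Snhg12, with a median of 0.20 beside -0.01 over all tested genes. Of all 15694 genes tested, 7720 were above 0. The groups did not overlap for 1 of the 10 genes, Snhg6, with dKO above WT, as for 13.2% of all tested genes in that direction and 25% in either.

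**Figure D3:**
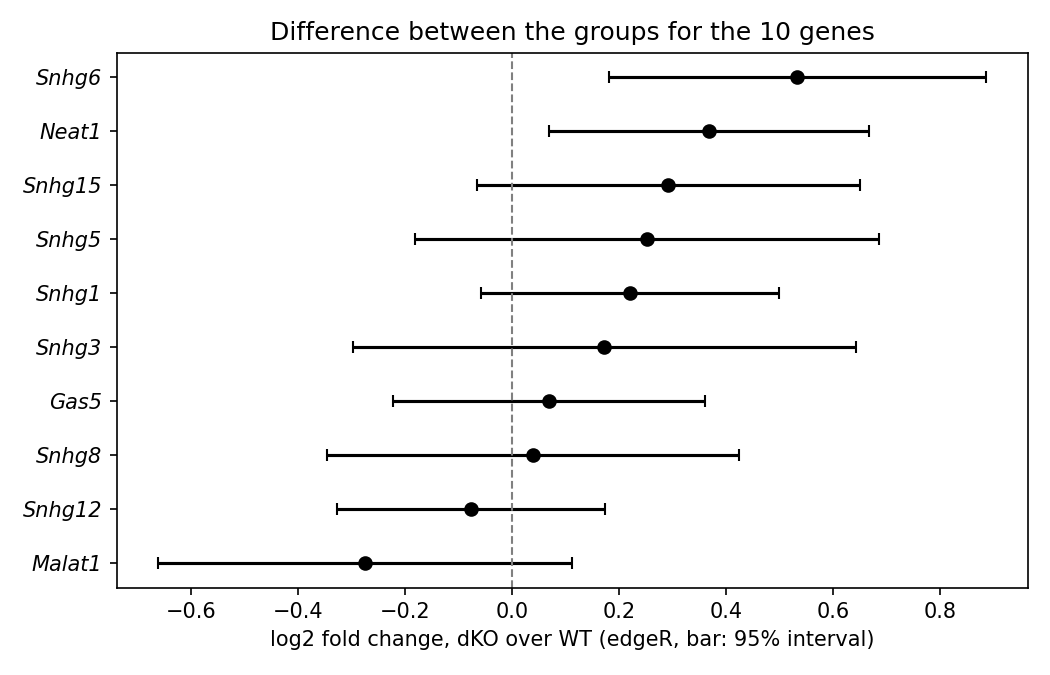
Log2 fold change of dKO over WT from edgeR for each gene, with its 95% interval as a bar and a dashed line at no difference. The estimates run from -0.27 for Malat1 to 0.53 for Snhg6, and the intervals of Snhg6 and Neat1 lie above 0.

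Levels were also divided by transcript length, for which the longest spliced transcript of GENCODE M21 was taken. The resulting order holds only if reads cover whole transcripts, which the sources used here do not show. Before the division Neat1 (257 CPM, WT mean) stood above Gas5 (190 CPM). Per 1000 bases, Malat1 (6983 bases, 1 exon) reached 963 ± 149 CPM in WT (SD, n = 3) and Gas5 (665 bases, 10 exons) 286 ± 38.5 CPM. Neither range overlapped that of the next gene in order. Snhg1 (90.3 ± 10.3 CPM), Snhg8 (82.2 ± 15.5 CPM), Snhg15 (75.4 ± 12.6 CPM), Snhg5 (49.2 ± 14.7 CPM) and Snhg12 (44.9 ± 4.17 CPM) followed, each overlapping the next over the WT libraries. Below them and apart from Snhg12 came Snhg6 (21.6 ± 2.30 CPM), Snhg3 (17.2 ± 4.22 CPM) and Neat1 (12.4 ± 2.34 CPM), again each overlapping its neighbour. The place of Neat1 rests on the long form of 20771 bases. Were all its reads from the annotated transcript of 3004 bases, its WT level would be 85.4 CPM per 1000 bases. The order in dKO was the same except that Snhg15 stood above Snhg8, with overlapping ranges.

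Gas5, the host of 8 annotated snoRNAs, was at 219, 179 and 172 CPM in WT 1 to WT 3, against 219.8, 213 and 165 in dKO 1 to dKO 3. The groups covered the same range, with WT 1, dKO 1 and dKO 2 high and dKO 3 lowest (log2 fold change 0.07 ± 0.13 SE, 95% interval -0.22 to 0.36, edgeR adjusted p = 0.835). Gas5 shares 264 bases with Zbtb37, and the sources used here do not say whether counting used strand. Reads of such stretches cannot be assigned with certainty. Zbtb37 did not pass the test either (-0.15 ± 0.13 SE, log2 fold change, edgeR adjusted p = 0.577).

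Snhg1, known as the host of U22 and of further box C/D snoRNAs, was at 72.3, 61.3 and 58.5 CPM in the WT libraries and at 83.5, 78.0 and 62.7 CPM in the dKO libraries. dKO 3 lay within the WT range and the other dKO libraries above it (0.22 ± 0.13 SE, log2 fold change, edgeR adjusted p = 0.383). Snhg12, which holds H/ACA snoRNAs and Snord99, was at 75.9, 63.2 and 67.9 CPM in WT and at 71.9, 66.7 and 58.0 CPM in dKO. Its ranges overlapped almost wholly (-0.08 ± 0.12 SE, interval -0.33 to 0.17, adjusted p = 0.779).

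Snhg6, the host of Snord87, was the host with the largest difference. It was at 19.7, 17.04 and 16.0 CPM in WT 1 to WT 3 (143, 138 and 172 reads) and at 30.6, 24.9 and 21.1 CPM in dKO 1 to dKO 3 (172, 148 and 192 reads). Every dKO library lay above every WT library, though dKO 3 exceeded WT 1 by little. The log2 fold change was 0.53 ± 0.16 SE (95% interval 0.18 to 0.89), and it did not pass the edgeR test (adjusted p = 0.0915). It passed where the filter on low counts was left out (adjusted p = 0.029). The size was not rare, as 13.8% of all tested genes had a larger absolute log2 fold change. Snhg6 shares 1582 bases with Mcmdc2, which was at 4.57 to 7.83 CPM and did not pass the test (0.31 ± 0.24 SE, adjusted p = 0.523).

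The ranges of the other 4 hosts overlapped between groups. Snhg5, the host of the U50 snoRNAs, was at 36.2, 46.7 and 65.3 CPM in WT and at 64.8, 58.2 and 54.7 CPM in dKO (0.25 ± 0.19 SE, log2 fold change, edgeR adjusted p = 0.534). Snhg15, the host of Snora9, was at 43.2, 49.5 and 60.0 CPM in WT and at 63.7, 74.8 and 49.8 CPM in dKO (0.29 ± 0.16 SE, adjusted p = 0.364). For both genes WT 1 was the lowest library of all. WT 3 was the highest of all for Snhg5 and lay within the dKO range for Snhg15. Snhg8, the host of Snora24, was at 38.0, 39.4 and 52.8 CPM in WT and at 50.2, 50.4 and 34.5 CPM in dKO (0.04 ± 0.17 SE, adjusted p = 0.934). Snhg3, the host of the U17 snoRNAs that take part in early ribosomal RNA cleavage, was the lowest in CPM, at 7.70, 9.76 and 12.6 in WT and 12.1, 12.8 and 9.58 in dKO (0.17 ± 0.22 SE, adjusted p = 0.727). Snhg8 was highest in WT 3 and lowest in dKO 3, while Snhg3 was lowest in WT 1 and nearly level in WT 3, dKO 1 and dKO 2. With Xist as a covariate Snhg5 differed by 0.65 (edgeR adjusted p = 0.0638) and Snhg15 by 0.58 (0.0792), without passing. Snhg5 was at 0.07 without WT 1 and 0.51 without WT 3, and Snhg3 at 0.01 and 0.38.

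The 8 hosts did not vary together over the WT libraries. Gas5, Snhg1, Snhg6 and Snhg12 were highest in WT 1, whereas Snhg3, Snhg5, Snhg8 and Snhg15 were highest in WT 3 and lowest in WT 1. In dKO all 8 were lowest in dKO 3. Within WT the highest library held 1.20 (Snhg12) to 1.80 (Snhg5) times the lowest, whereas within dKO the ratio was smallest for Snhg5, at 1.18, among the 8. These are descriptions of 3 libraries per group and were not tested. WT 1 and WT 3 also lay at the ends of a list of 15 genes induced by tissue dissociation (summed level 7271 CPM in WT 1, 25740 CPM in WT 3 and 8008 to 13480 CPM in dKO) and differed in Xist as given above. Either was added as a covariate to the comparison of the groups, with host values given where that covariate is named. Those fits compare the groups, and the part of either in the spread of the hosts over the WT libraries was not tested.

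**Figure D4:**
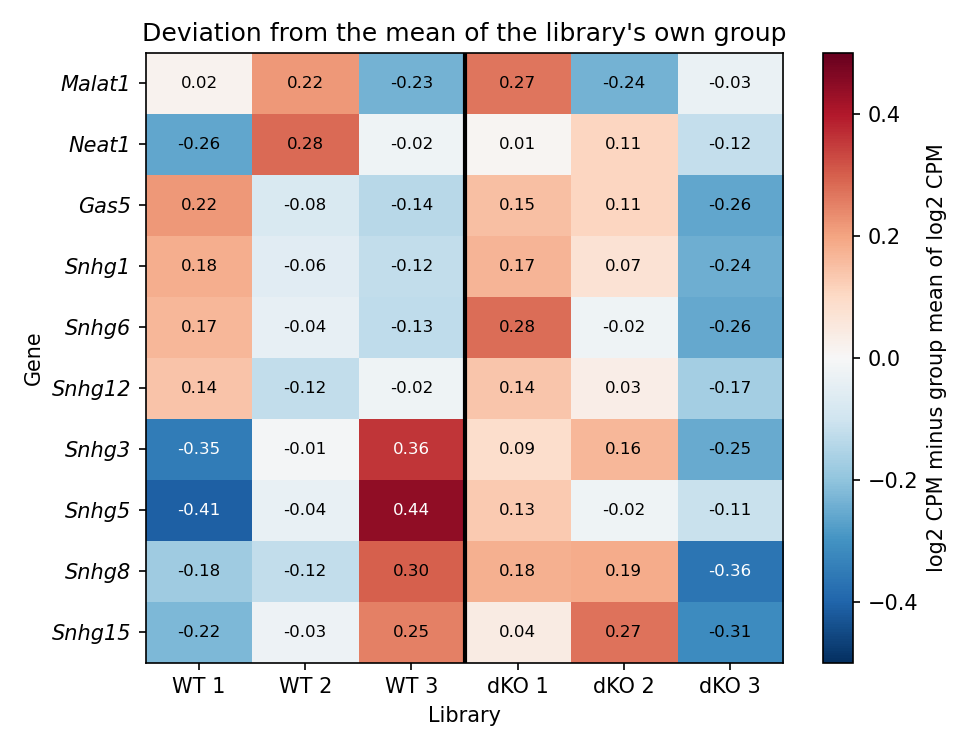
Deviation of each gene's log2 CPM from the mean of the library's own group, in colour and as a printed value, with 1 column per library and 1 row per gene. WT 1 is above its group mean for Gas5, Snhg1, Snhg6 and Snhg12 and below it for Snhg3, Snhg5, Snhg8 and Snhg15, while dKO 3 is below its group mean for all 10 genes.

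Added together, the 8 hosts reached 512, 466 and 505 CPM in WT 1 to WT 3, against 596.5, 579 and 456 in dKO 1 to dKO 3. dKO 3 was the lowest of all 6 libraries and the other dKO libraries the highest. The means were 494 ± 24.9 and 544 ± 76.6 CPM (SD, n = 3), a difference of 49.5 CPM (two-sided exact permutation p = 0.4) that was 23.1 CPM without dKO 1, 31.9 CPM without dKO 2 and 93.4 CPM without dKO 3. The log2 ratio of Gas5 reads to the summed reads of the 7 Snhg genes differed by -0.10 between the group means (exact permutation p = 0.7). It spanned -0.96 to -0.42 in WT and only -0.81 to -0.78 in dKO. The log2 ratio of Malat1 and Neat1 reads together to host reads was 3.77, 4.11 and 3.55 in WT and 3.55, 3.12 and 3.64 in dKO, a difference of -0.38 (exact permutation p = 0.2). With adjustment over the 4 tests of this kind, Neat1 to Malat1 included, the p-values were 0.4 to 0.7.

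The snoRNAs inside the 8 hosts have rows of their own in part. RefSeq places 27 annotated snoRNAs within the hosts, 26 of them had a row, and 16 were abundant enough to be tested. A snoRNA is short and lacks a poly(A) tail, and its row can also take reads from the intron or from a host transcript that keeps it, so a row's level is not a measure of the mature snoRNA alone. Over all libraries the rows inside Gas5 held 20.1 reads for every 100 Gas5 reads, those inside Snhg1 25.3, and those inside Snhg3 125.9, since Snora73b alone (12.4, 14.2 and 16.7 CPM in WT, 12.1, 15.3 and 8.15 CPM in dKO) had more reads than its host in the sum over all libraries (617 against 501). In dKO 1 both had 68 reads, and in dKO 3 Snora73b had fewer (74 against 87). The rows inside Snhg12 held 7.34 reads per 100 host reads, and the single row counted in Snhg5 0.0785. Snora73b did not pass the edgeR test (log2 fold change -0.31 ± 0.23 SE, adjusted p = 0.497).

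One of the 16 rows passed, beside 3.31% of all genes tested, and it was named after its values had been seen. LOC115487638 (Gm22357 in GENCODE) lies inside Gas5 and was at 16.2, 18.3 and 14.4 CPM in WT 1 to WT 3 (118, 148 and 154 reads) and at 7.12, 8.07 and 6.39 CPM in dKO 1 to dKO 3 (40, 48 and 58 reads). All dKO libraries lay well below all WT libraries, and the spread within each group was small. The log2 fold change was -1.18 ± 0.19 SE (95% interval -1.59 to -0.78, edgeR adjusted p = 0.00527), while Gas5 itself stayed within its spread. It kept its direction and its call without any one library, and lost the call, at a similar size (-1.17), with the hepatocyte markers Trf and Serpina1a as a covariate (adjusted p = 0.106). The 8 hepatocyte markers in the table summed to 6.74 to 14.7 CPM in WT and 20.4 to 31.1 CPM in dKO. Most of this sum was Trf, at 4.13, 7.66 and 10.7 CPM in WT and 27.8, 21.35 and 14.5 CPM in dKO. Serpina1a, on 4 to 14 reads per library, pointed the other way (-0.47 ± 0.44 SE, log2 fold change, edgeR adjusted p = 0.616). The covariate is therefore not a clear measure of hepatocyte RNA.

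Its letters are shown with those of 3 further snoRNAs of Gas5, because the difference concerned 1 row of the 8. Capitals mark the letters TGATGA of box C near the 5′ end, where present, and CTGA of box D near the 3′ end, the pair of boxes that the box C/D snoRNA proteins recognise (GENCODE M21, GRCm38, plus strand).
LOC115487643, Gm26224 (chr1:161035394-161035473): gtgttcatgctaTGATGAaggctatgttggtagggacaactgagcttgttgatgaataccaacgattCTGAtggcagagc
LOC115487638, Gm22357 (chr1:161036057-161036139): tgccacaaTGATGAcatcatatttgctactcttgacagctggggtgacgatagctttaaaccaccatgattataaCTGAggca
LOC115487677, Snord78 (chr1:161036984-161037049): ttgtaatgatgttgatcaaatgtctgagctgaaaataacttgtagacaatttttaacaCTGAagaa
LOC115487645, Snord80 (chr1:161037601-161037681): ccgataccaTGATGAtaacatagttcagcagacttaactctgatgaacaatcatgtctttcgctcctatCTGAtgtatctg

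The other rows inside Gas5 did not pass the test and pointed both ways. LOC115487643, which lies before it, was at 3.99, 10.6 and 6.62 CPM in WT and 3.03, 5.88 and 4.41 CPM in dKO (-0.67 ± 0.36 SE, log2 fold change, edgeR adjusted p = 0.339). LOC115487677 was at 10.4, 4.94 and 8.67 CPM in WT and 12.1, 11.8 and 9.58 CPM in dKO (0.47 ± 0.25 SE, adjusted p = 0.346). LOC115487645 was at 0.825, 1.11 and 2.80 CPM in WT and 3.56, 2.86 and 1.87 CPM in dKO (0.69 ± 0.46 SE, adjusted p = 0.449), on 6 to 30 reads per library. All 4 sequences are also held whole by an annotated Gas5 transcript, so the choice between the row and Gas5 lay with the counting, whose rule the sources used here do not give. When the rows were added to their hosts, an alternative chosen after seeing the data, Gas5 differed by 0.02 and Snhg6 by 0.56, and 0 of the 10 genes were called.

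**Figure D5:**
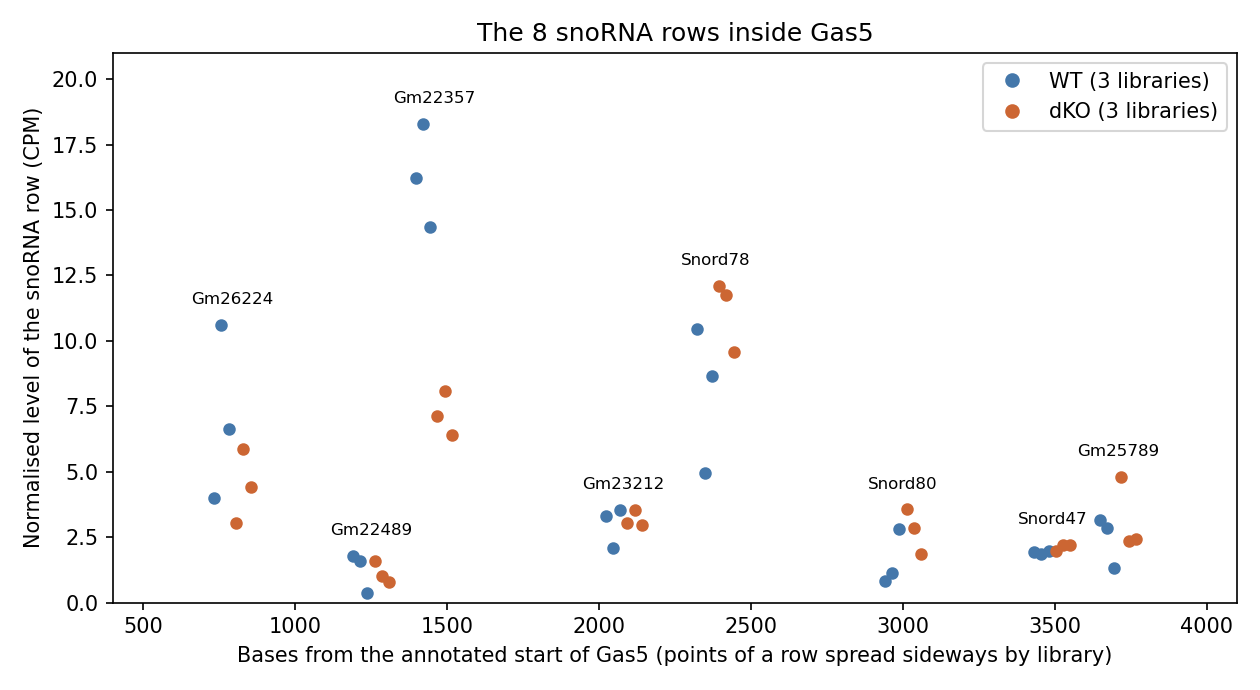
Normalised level (CPM, linear axis from 0) of the 8 snoRNA rows inside Gas5 against their distance in bases from the annotated start of Gas5, with 1 point per library (WT blue, dKO orange) spread sideways within a row. Gm22357, the row LOC115487638, lies at 14.4 to 18.3 CPM in WT and 6.39 to 8.07 CPM in dKO, and the points of the other 7 rows overlap between groups.

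Of the other snoRNA host transcripts without a long reading frame, 1 of 9 tested was called, Snhg16, beside 3.31% of all genes tested, and 4 were at an unadjusted p under 0.05, beside 19.2%. It was at 25.9, 21.98 and 21.2 CPM in WT 1 to WT 3, against 33.8, 36.0 and 31.4 in dKO 1 to dKO 3. The groups did not overlap (0.55 ± 0.13 SE, log2 fold change, edgeR adjusted p = 0.0378), about the size of the Snhg6 difference. The call was lost without WT 2, WT 3 or any 1 dKO library (adjusted p = 0.0606 to 0.143). The median of the list was -0.05. Snhg20 (0.62 ± 0.20 SE), Zfas1 (0.36 ± 0.16) and Snhg17 (-0.31 ± 0.14) did not pass.

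Host transcripts are substrates of nonsense-mediated decay, and of 17 tested factors of that pathway 1 was called, beside 3.31% of all genes tested. Upf3b, which links the exon junction complex to the decay machinery, was at 82.5, 82.3 and 98.3 CPM in WT and at 118, 126 and 125 CPM in dKO. The groups did not overlap (0.48 ± 0.11 SE, log2 fold change, edgeR adjusted p = 0.0272), and the call was lost without WT 2 or any 1 dKO library (adjusted p = 0.0694 to 0.114). Smg1, the kinase that phosphorylates Upf1, lay the other way at 503, 437 and 518.5 CPM against 348, 358 and 374 CPM. Its groups did not overlap either, as for 25% of all genes tested, and it missed the threshold by edgeR (-0.43 ± 0.11 SE, adjusted p = 0.0576) and passed by DESeq2. Rbm8a (0.34 ± 0.12 SE) and Upf2 (0.33 ± 0.16) did not pass, and the median of the list was -0.07.

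No gene of the remaining lists was called by edgeR or limma-voom. DESeq2 called Ncl, Srsf5 and Tsix among them, and both limma fits to log2 CPM called Rn7sk. The counts at an unadjusted p under 0.05 in these lists stand beside 19.2% of all genes tested. Among 19 tested proteins that build snoRNPs the median log2 fold change was -0.10 and 6 were at an unadjusted p under 0.05. The smallest p were those of Rpap3 (0.50 ± 0.15 SE), Shq1 (0.81 ± 0.30), Rrp9 (-0.38 ± 0.15) and Nop56 (0.27 ± 0.12), of which Rpap3 belongs to the assembly machinery and Nop56 to the box C/D particle. Among 24 protein-coding snoRNA hosts the median was -0.11, with 4 at an unadjusted p under 0.05. Ncl, the nucleolar protein nucleolin, was at 0.45 ± 0.13 SE, while Ptcd3 was at -0.47 ± 0.15.

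The proteins of the bodies that Malat1 and Neat1 RNA occupy were examined too. Nuclear speckle proteins had a median log2 fold change of 0.15 over 19 tested genes, 14 of them above 0 and 4 at an unadjusted p under 0.05. Above 0 were also 7720 of all 15694 genes tested. Among the speckle proteins, Srsf5 (0.46 ± 0.14 SE), Srrm1 (0.29 ± 0.11), Son (0.33 ± 0.12) and Srsf1 (0.22 ± 0.10) had the smallest p. Their adjusted p by edgeR began at 0.0938. The 20 paraspeckle proteins were even, 10 above and 10 below 0 with a median of -0.01 and 4 at an unadjusted p under 0.05, and Cirbp (0.42 ± 0.12 SE), Rbm4 (-0.51 ± 0.17) and Nudt21 (-0.29 ± 0.12) were among those with the smallest p.

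Regulators of mRNAs that begin with a pyrimidine run had a median of 0.01 over 15 tested genes, 2 of them at an unadjusted p under 0.05. Rptor (-0.37 ± 0.14 SE) and Tsc1 (-0.31 ± 0.13), which promote and restrain mTORC1 signalling, and Larp1 (0.25 ± 0.12) and Pabpc1 (0.23 ± 0.13), which bind such mRNAs, had the smallest p. Glucocorticoid and growth arrest genes had a median of 0.20 over 12 tested genes, 1 of them at an unadjusted p under 0.05. Btg1, an antiproliferative gene, was at 0.43 ± 0.16 SE, the glucocorticoid-induced Tsc22d3 at 0.34 ± 0.17, Foxo1 at 0.27 ± 0.13 and Btg2 at -0.41 ± 0.21. Among 20 other named long noncoding RNAs the median was 0.02, with 8 at an unadjusted p under 0.05. Tsix (1.46 ± 0.40 SE), whose reads cannot be told from those of Xist on the opposite strand without stranded counting, Ftx (-0.46 ± 0.14), Firre (0.92 ± 0.32) and Morrbid (0.62 ± 0.22) had the smallest p.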

How the data were processed

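Libraries of RNA from sorted liver CD4 T cells were prepared with the NEBNext Ultra II FS kit and read from a single end, with 3 biological replicates per group according to the study's methods. The submitters' processing notes name cutadapt and Bowtie2 and both mm10 (GRCm38) and GRCm39. The sources used here give no counting tool, annotation or use of strand. The authors deposited raw counts per gene symbol, which were tested here, and a normalised table called TPM. Its deposited values are CPM, since 100% of 170580 values give back the count within 0.01 reads, and it was used only in alternatives. A deposited table of mapped reads was not used. The design had assumed TPM for the normalised values.

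Genes were kept by filterByExpr (minimum count 10, minimum total 15), scaled by trimmed mean of M values, and compared by edgeR 4.0.16 (quasi-likelihood test, robust, group as sole term, R 4.3.3) with Benjamini-Hochberg adjustment over all tested genes. SE is the log2 fold change over the square root of F. DESeq2 1.42.0, limma 3.58.1, other scalings and filters, left-out libraries, a replicate block and marker covariates were alternatives. The procedure was tested on simulated data. The p-values reflect the spread between libraries.

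Members and lists were chosen with earlier results of these data known. Of each list, the called genes, or otherwise up to 4 with the smallest p, are named, with Nr4a1, Nr4a2, Nr4a3 and the neighbours of Malat1 and Neat1. Some genes that this rule names are not reported here. Other genes were named after their values were seen. Sequences come from RefSeq (GRCm38.p6) and GENCODE M21 (GRCm38).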

Additional observations from a re-analysis of the deposited data

How the results depend on the processing

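The 10 genes were refitted under 21 alternatives. Of 210 values, 194 kept their direction and their side of the threshold, 2 passed it and 14 turned. One gene was called without a filter on low counts (Snhg6) and 1 with Xist as a covariate (Neat1, 0.61), and 0 under every other alternative run. With 1 library left out, Snhg8 ranged from -0.058 to 0.21 (below 0 without WT 1, WT 2, dKO 1 or dKO 2), Gas5 from -0.0051 (without dKO 1) to 0.18, Snhg12 from -0.15 to 0.00076 (without dKO 3) and Frmd8 from -0.16 to 0.092 (without WT 1). Snhg3 (0.012 to 0.38), Snhg5 (0.066 to 0.51), Snhg15 (0.15 to 0.43), Snhg1 (0.13 to 0.33) and Malat1 (-0.42 to -0.16) moved by over 1.5 times without turning. Neat1 did so too (0.24 to 0.52). With hepatocyte markers as a covariate Snhg3 was -0.14, Snhg5 -0.19, Snhg8 -0.14, Snhg12 0.033, Nr4a1 -0.098 and Frmd8 0.29, and with macrophage markers Snhg8 was -0.13 and Frmd8 0.00063. Gas5 was -0.023 with dissociation genes and -0.074 with Xist, where Btg2 was 0.13, and Snhg3 was -0.093 with snoRNA rows added to hosts. The cause of these turns was not tested. With dissociation genes as a covariate Neat1 was 0.45 (edgeR adjusted p = 0.07) and Snhg6 was 0.42 (edgeR adjusted p = 0.161), without passing. Only Trf and Serpina1a of the hepatocyte markers and Cd68 of the macrophage markers were abundant enough to serve as covariates.

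Over all genes, 520 were called, 1316 without a filter, 61 with hepatocyte markers as a covariate and 132 to 825 with 1 library left out. Of the pathway lists other than the 10 genes, cell type markers not counted, 3 genes were called, 13 without a filter, 7 by DESeq2, 7 with dissociation genes, 7 with Xist, 0 with hepatocyte markers and 0 to 7 with 1 library left out. The log2 ratio of Gas5 to the summed Snhg reads ranged from -0.24 to 0.029 with 1 library left out, turning without WT 1, and the other 3 summed values and ratios kept their direction (23.1 to 93.4 CPM for the summed hosts, 0.49 to 0.79 for Neat1 to Malat1 and -0.51 to -0.22 for nuclear to host reads).

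Libraries with the same number did not deviate together (correlations over 15694 genes of 0.06, 0.03 and -0.09), so the numbers were not taken as pairs. With a replicate block edgeR called 491 genes, 0 of the 10 and 3 listed genes, with Tsix in place of Snhg16. In the block the summed host level differed by 49.5 CPM (exact sign-flip p = 0.5), and the log2 ratios by 0.66 for Neat1 to Malat1 (p = 0.25, the smallest 3 pairs allow), -0.10 for Gas5 to the summed Snhg reads (p = 0.75) and -0.38 for nuclear to host reads (p = 0.5).

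Snhg3 rested on 501 reads in all, and 3 libraries per group set the limit for the other genes.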

Other observations

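Over the whole count table, snoRNA rows were few. Of the 380 snoRNA symbols, 53 were abundant enough to be tested and 2 were called by edgeR, beside 3.31% of all genes tested, LOC115487638 and Snord55, both lower in the libraries labelled dKO. Snord55, named after its values were seen, was at 10.4, 7.90 and 9.32 CPM in WT 1 to WT 3 and at 2.85, 4.88 and 4.63 CPM in dKO 1 to dKO 3, with all dKO libraries below all WT libraries (log2 fold change -1.14 ± 0.25 SE, edgeR adjusted p = 0.0257).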
